A study of Homo sapiens with 6 samples.

Results

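The genes described here are the human globin genes and AHSP, the chaperone of free alpha-globin, in K562 cells. The members were taken by symbol from the deposited count table, and all 10 were found among its 24960 genes. They comprise 4 alpha-type genes (HBZ, HBA2, HBA1 and HBQ1), 5 beta-type genes (HBE1, HBG2, HBG1, HBD and HBB) and AHSP. K562 is a chronic myeloid leukemia (CML) cell line carrying the BCR::ABL fusion, and both groups were grown from this 1 line. The control group and the hyperoside (2 mM) group had 3 libraries each. Hyperoside is a flavonol glycoside, quercetin with a galactose attached. The time of exposure before RNA extraction is not given in the sources used here, nor is it stated whether replicates were separate cultures. If they were not, the p-values measure only the spread between these libraries, which may be technical. Per library, 35613283 to 36754725 counts fell on genes, so the libraries were of like depth.

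Hemoglobin is assembled from a pair of alpha-type and a pair of beta-type chains, each holding a heme. The genes of each type stand side by side in the genome, the beta-type ones in the order HBE1, HBG2, HBG1, HBD and HBB along the DNA, and they are used in turn during development. HBE1 (epsilon) and HBZ (zeta) encode the embryonic chains, HBG1 and HBG2 (gamma) the fetal beta-type chain, HBB (beta) and HBD (delta) the adult beta-type chains, and HBA1 and HBA2 (alpha) the chain shared by fetal and adult hemoglobin. HBQ1 (theta) encodes a globin-like chain not known to form part of a common hemoglobin. K562 cells are known for keeping the embryonic and fetal program, and agents that push them along the erythroid path are often read out by their globins.

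In the hyperoside group 6 of the 10 genes fell and none rose, where 23.2% of all genes tested fell and 22.1% rose. The 6 include the near copies HBA1 and HBA2, and HBG1 and HBG2, counted as separate genes. On FPKM, a level per gene length and library total, the gamma and alpha genes stood at 53.22% (HBA1) to 59.62% (HBG2) of the control mean and HBE1 at 75.53%, while HBZ, HBD, HBB and AHSP were not called. Embryonic genes took a larger share of each class's summed FPKM, an RNA measure, in every hyperoside library than in any control library. Neither embryonic gene was called higher. None of the genes reached the fold change above 2 that the study asks of a differentially expressed gene (DEG).

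By GENCODE 29 on GRCh38 each member has 3 exons. On the minus strand of chromosome 11 stand HBE1 (chr11:5268352-5269945), HBG2 (chr11:5253190-5254811), HBG1 (chr11:5248079-5249859), HBD (chr11:5232838-5234648) and HBB (chr11:5225464-5227071). On the plus strand of chromosome 16 stand HBZ (chr16:152687-154503), HBA2 (chr16:172876-173710), HBA1 (chr16:176680-177522), HBQ1 (chr16:180453-181181) and, far from the cluster, AHSP (chr16:31527864-31528803).

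Some of these genes are near copies of each other, which limits how far their reads can be told apart, so their sequences are shown first. The reference coding sequences of HBG1 and HBG2 differed at 2 of 441 bases before the stop codon. Counted from 1 at the first base of the start codon, with the HBG1 base first, these were C227T in exon 2 and C410G in exon 3. The stretches of 60 bases around each difference are given from the GENCODE 29 transcripts on GRCh38, all on the minus strand of chromosome 11. Capitals mark the base that differs between the copies.
HBG1, exon 2, chr11:5249427-5249486: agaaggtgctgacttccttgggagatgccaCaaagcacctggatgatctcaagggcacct
HBG2, exon 2, chr11:5254351-5254410: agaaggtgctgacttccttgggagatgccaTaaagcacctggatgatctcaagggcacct
HBG1, exon 3, chr11:5248364-5248423: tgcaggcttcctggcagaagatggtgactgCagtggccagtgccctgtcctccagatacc
HBG2, exon 3, chr11:5253282-5253341: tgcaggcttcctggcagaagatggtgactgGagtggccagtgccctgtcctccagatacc
A read lying within the lower-case letters of either stretch fits both genes equally well.

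HBE1 is a more distant relative, with 83.45% of its coding bases the same as in HBG2. In the stretch that matches the exon 2 window above, also on the minus strand, capitals mark the 12 bases that differ from HBG2.
HBE1, exon 2, chr11:5269513-5269572: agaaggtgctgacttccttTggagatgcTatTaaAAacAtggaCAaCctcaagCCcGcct
The alpha-type genes showed the same contrast between copies and relatives. HBA1 and HBA2 had identical coding sequences over all 426 bases before the stop codon, whereas HBZ shared 68.54% of its coding bases with them. The first 60 coding bases, on the plus strand of chromosome 16, show this, with capitals for the 27 bases at which HBZ differs from HBA1.
HBA1, exon 1, chr16:176717-176776: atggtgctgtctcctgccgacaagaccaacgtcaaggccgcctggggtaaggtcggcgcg
HBA2, exon 1, chr16:172913-172972: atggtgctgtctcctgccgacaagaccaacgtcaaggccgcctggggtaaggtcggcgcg
HBZ, exon 1, chr16:152910-152969: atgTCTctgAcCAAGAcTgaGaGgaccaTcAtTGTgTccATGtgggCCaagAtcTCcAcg

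To put a number on this, each annotated transcript was cut into overlapping windows and each window was looked up in the transcripts of every other gene of the table. The read length is not given in the sources used here, so windows of 50, 100 and 150 bases were used. With 100 bases, 79.87% of the HBA2 windows and 79.71% of the HBA1 windows also stood in the other alpha gene. For the gamma genes the shares were 51.46% in HBG2 and 38.97% in HBG1. HBE1, HBD, HBB, HBQ1 and AHSP had no shared window of this length. In HBZ 16.16% of windows were shared with annotated HBM transcripts. The transcripts cut here had 779 bases for HBG1 and 614 for HBG2, whereas the deposited FPKM implied lengths of 587 and 586. The shares over the bases that were counted may therefore differ. Programs that count reads per gene often leave out reads that fit several places, and the setting used here is not given. The split within each pair, and the level of a pair against other genes, are therefore less certain than the change of the pair between groups.

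**Figure D1:**
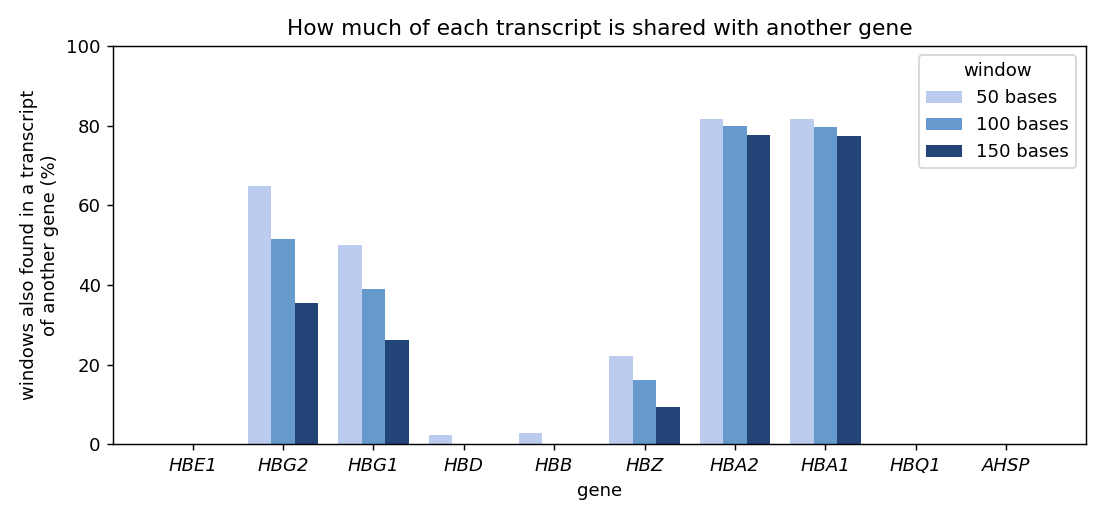
Share of overlapping windows of each gene's annotated transcript that also occur in a transcript of another gene (percent, y axis), for windows of 50, 100 and 150 bases. The alpha genes HBA2 and HBA1 share 77.34% to 81.78% of their windows at each length, the gamma genes between 26.19% and 64.78%, and HBE1, HBQ1 and AHSP almost none.

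Levels of different genes were compared as FPKM, which the authors made from the counts by dividing by gene length and library total. HBE1 was the most abundant member and ranked 8 among all genes of the table in the control group, by mean FPKM. Its FPKM was 5437, 4446 and 4436 in control replicates 1, 2 and 3, and 3339, 4042 and 3434 in hyperoside replicates 1, 2 and 3. Control replicate 1 was the highest and hyperoside replicate 2 the highest of its group, and the groups did not overlap. HBE1 was followed by HBG2 (mean of 2179 FPKM in the control group), HBG1 (769.1), HBZ (395.3), HBA2 (119.8), HBA1 (115.1), HBQ1 (27.37), HBD (11.29), AHSP (5.24) and HBB (0.662). In the control group every neighbour in this order was separated by the range of its 3 libraries except HBA2 and HBA1. These ranges do not cover how reads shared between near copies were counted. The places of the gamma and alpha genes among the others are therefore less certain. The order by mean was the same in the hyperoside group, where the ranges of HBG1 and HBZ overlapped as well as those of HBA2 and HBA1. The adult beta-type genes were therefore almost absent beside the embryonic and fetal ones, and HBB had between 6 and 21 counts per library.

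**Figure D2:**
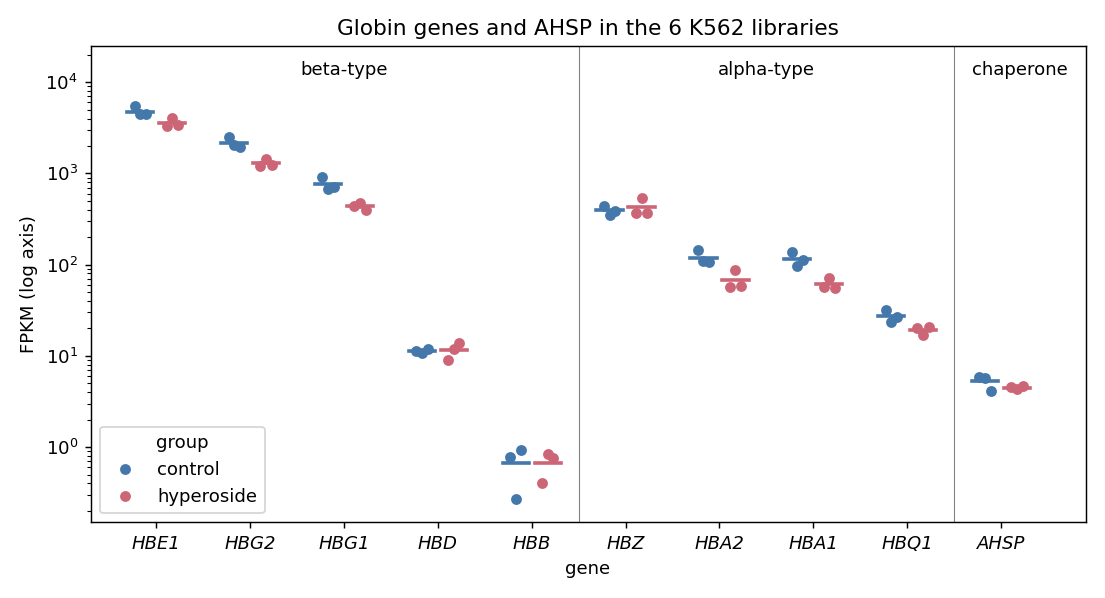
FPKM (log axis) of the 10 genes in each of the 6 libraries, with the group mean as a short line. HBE1, HBG2, HBG1, HBA2, HBA1 and HBQ1 are lower in all 3 hyperoside libraries than in any control library, and HBZ, HBD, HBB and AHSP overlap between the groups.

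The fetal genes fell together. HBG2 had 2505, 2072 and 1959 FPKM in control replicates 1, 2 and 3, and 1209, 1435 and 1253 in hyperoside replicates 1, 2 and 3. The groups did not overlap. The gap between the highest hyperoside and the lowest control library was larger than the range of the hyperoside group. It was slightly smaller than the range of the control group. The log2 fold change of HBG2, from counts normalized with edgeR's TMM method, was -0.80 (SE, standard error, 0.09; adjusted p = 2.34e-06 by the quasi-likelihood test of edgeR, Benjamini-Hochberg over 15095 genes). HBG1 had 923.4, 681.9 and 701.9 FPKM in control and 435.4, 475.1 and 401.0 in hyperoside libraries. It fell by 0.87 on the log2 scale (SE 0.11, edgeR adjusted p = 3.18e-06). With both copies summed before the fit, the gamma counts fell from 1763 ± 295.3 to 1001 ± 86.9 CPM, counts scaled to the normalized library total (SD, n = 3 libraries each). The log2 fold change of the sum was -0.82 (SE 0.10, edgeR adjusted p = 1.99e-06), so the fall did not rest on how reads were split between the copies.

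The change of the fetal genes stands against a background in which many genes changed. Of all 15095 genes tested, 23.2% were called lower at an adjusted p under 0.05 and 22.1% were called higher, or 45.3% in either direction. Of the 10 members, all of which were tested, 6 were called lower and 0 higher by edgeR. At an unadjusted p under 0.05 the numbers were also 6 and 0, and DESeq2 and limma gave 6 and 0 as well. The median log2 fold change was -0.51 over the members and 0.00 over all genes tested. These counts and the median take the near copies HBG1 and HBG2, and HBA1 and HBA2, as separate genes. The calls within a pair are therefore not independent, and each summed pair was called lower as well. On CPM, 6 members had every hyperoside library below every control library, against 27.3% of all genes tested that were lower without overlap and 54.4% that did not overlap in either direction. As DEGs, 3.76% of all genes were lower and 6.43% higher, and none of the members was either. HBA1 came nearest to that threshold.

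HBE1, the embryonic gene, also fell. Its log2 fold change was -0.46 (SE 0.09, edgeR adjusted p = 0.000546), from 3033 ± 440.7 to 2209 ± 235.6 CPM (SD, n = 3 libraries each). The ratio of HBE1 to the gamma sum, on FPKM, was 1.59, 1.61 and 1.67 in control replicates 1, 2 and 3, and 2.03, 2.12 and 2.08 in hyperoside replicates 1, 2 and 3. The ratio was thus higher in each hyperoside library than in each control library, by 1.28 times in the mean. The difference of 0.452 was larger than the SD of either group (0.0410 and 0.0433). A two-sided exact permutation test gave p = 0.1, the smallest that 3 libraries against 3 allow, and 0.14 after Benjamini-Hochberg adjustment over the 7 ratios and shares tested. Among the beta-type genes HBE1 took 61.8% ± 0.582 of the summed FPKM in control and 67.3% ± 0.450 in hyperoside libraries (SD, n = 3 per group). The shares of HBG2 were 28.2% ± 0.587 and 24.3% ± 0.260, and those of HBG1 were 9.91% ± 0.473 and 8.18% ± 0.469 (SD, n = 3 each). The levels of these shares and of the ratio depend on how reads shared by HBG1 and HBG2 were counted.

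**Figure D3:**
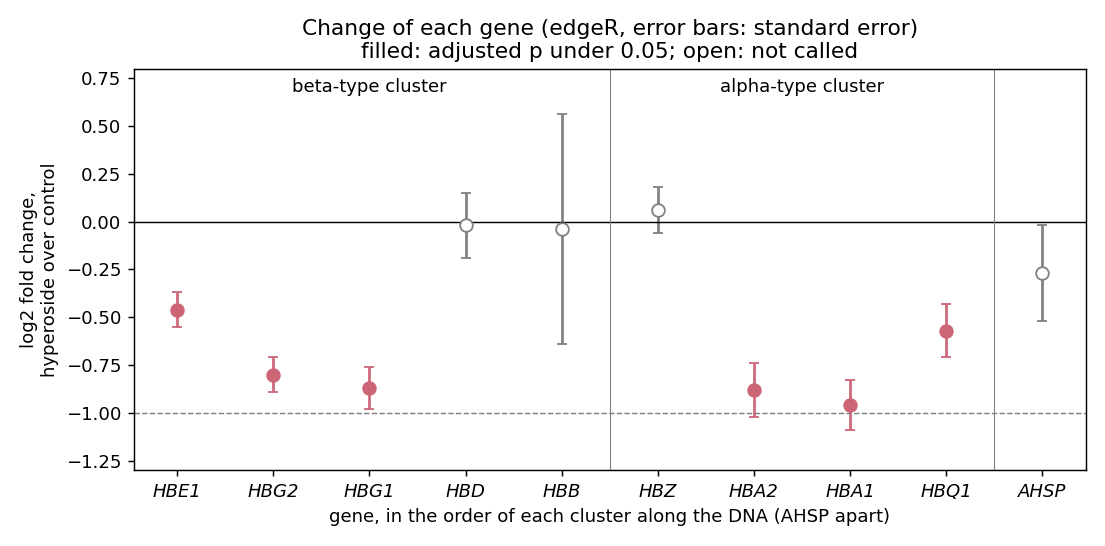
Log2 fold change of each gene, hyperoside over control, from edgeR, with its standard error. Genes stand in the order of each cluster along the DNA, filled points passed an adjusted p of 0.05, and the dashed line marks a change of 2-fold. HBG2, HBG1, HBA2 and HBA1 lie between -0.80 and -0.96, HBE1 and HBQ1 at -0.46 and -0.57, and HBD, HBB, HBZ and AHSP are open.

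The adult beta-type genes did not show a detectable change at their low level. HBD, a minor adult chain, had 259, 236 and 261 counts in control libraries and 201, 265 and 304 in hyperoside libraries. The hyperoside libraries lay on both sides of the control libraries. The log2 fold change of HBD was -0.02 (SE 0.17, edgeR adjusted p = 0.940). HBB, the main adult chain, had 18, 6 and 21 counts in control libraries and 9, 19 and 17 in hyperoside libraries. Its log2 fold change of -0.04 had a standard error of 0.60 (edgeR adjusted p = 0.959), so a change of HBB as large as that of the gamma genes could not be seen at this depth.

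Of the alpha-type genes, both alpha copies fell by about as much as gamma did. HBA2 had 143.5, 109.9 and 105.9 FPKM in control libraries and 57.6, 86.6 and 58.6 in hyperoside libraries. HBA1 had 136.2, 97.5 and 111.5 FPKM in control libraries and 56.6, 72.2 and 55.0 in hyperoside libraries. In both genes control replicate 1 was the highest library and hyperoside replicate 2 stood above the other two of its group, but no hyperoside library reached a control library. The log2 fold change was -0.88 for HBA2 (SE 0.14, edgeR adjusted p = 8.27e-05) and -0.96 for HBA1 (SE 0.13, edgeR adjusted p = 7.02e-06). Summed, the pair fell from 138.1 ± 26.4 to 73.1 ± 14.7 CPM (SD, n = 3 libraries each), a log2 fold change of -0.92 (SE 0.13, edgeR adjusted p = 1.46e-05). Without hyperoside replicate 2, both alpha genes passed the fold change of 2, each at a log2 fold change of -1.10. Without control replicate 2 or 3, HBA1 alone did.

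HBZ, the embryonic alpha-type gene, had the highest FPKM of its class. Its FPKM was 440.5, 354.1 and 391.4 in control replicates 1, 2 and 3, and 370.7, 543.2 and 368.6 in hyperoside replicates 1, 2 and 3. The groups overlapped, with 2 hyperoside libraries inside the control range and hyperoside replicate 2 above it. The log2 fold change of HBZ was 0.06 (SE 0.12, edgeR adjusted p = 0.708), and without hyperoside replicate 2 it was -0.15 (edgeR adjusted p = 0.240). Set against the alpha pair within the same library, HBZ separated the groups. The ratio of HBZ to the sum of HBA1 and HBA2, on FPKM, was 1.58, 1.71 and 1.80 in control libraries and 3.25, 3.42 and 3.25 in hyperoside libraries. Its group means were 1.69 ± 0.113 and 3.31 ± 0.0997 (SD, n = 3 each), which is 1.95 times as high in the hyperoside group and 1.88 to 2.01 times when any 1 library was left out. The two-sided exact permutation test gave p = 0.1, again the smallest possible, and an adjusted p of 0.14. HBZ took 60.2% ± 1.505 of the alpha-type FPKM in control and 74.1% ± 1.27 in hyperoside libraries (SD, n = 3 per group). The place of HBZ above the alpha genes, and the levels of this share and ratio, depend on how reads shared by HBA1 and HBA2 were counted.

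HBQ1 (theta) fell as well. It had 31.5, 23.7 and 26.9 FPKM in control libraries and 19.99, 16.8 and 20.6 in hyperoside libraries. Hyperoside replicate 2, the library with the most HBZ, HBA1 and HBA2 of its group, had the least HBQ1. The log2 fold change of HBQ1 was -0.57 (SE 0.14, edgeR adjusted p = 0.00310). Along the alpha cluster it follows HBA1, and it shares 73% of coding bases with HBA1 and with HBA2.

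**Figure D4:**
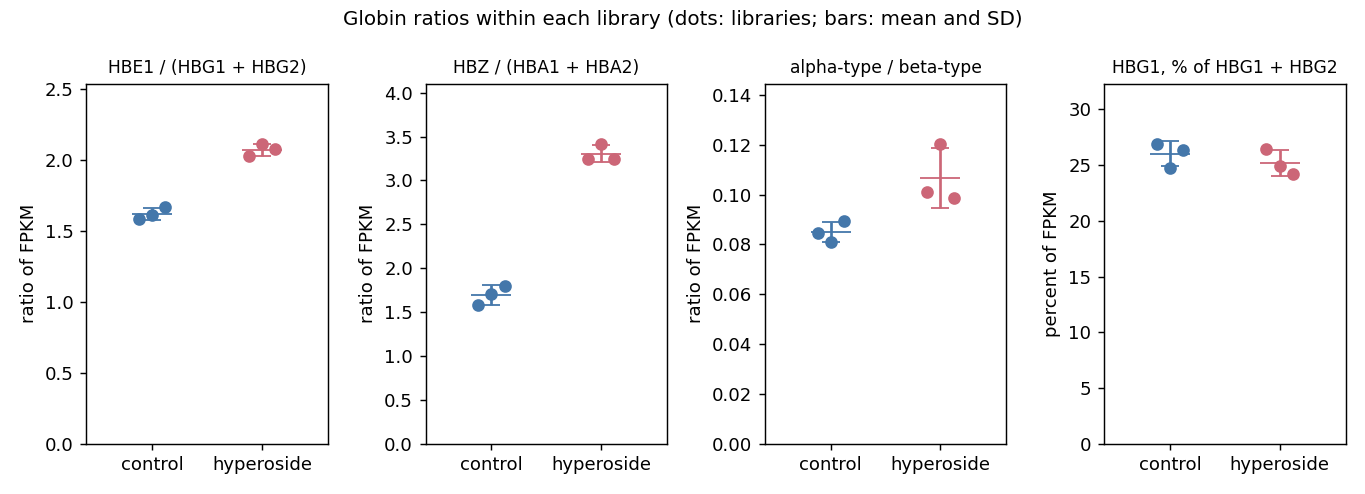
Within-library ratios and 1 share on FPKM, each axis starting at 0, with the 3 libraries per group as dots and the mean and SD as bars. The ratios of HBE1 to gamma (1.59 to 1.67 against 2.03 to 2.12) and of HBZ to alpha (1.58 to 1.80 against 3.25 to 3.42) separate the groups, as does the alpha-type to beta-type ratio, while the share of HBG1 within the gamma pair overlaps.

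Over both classes the members held 0.594%, 0.481% and 0.479% of all counts in control replicates 1, 2 and 3, and 0.343%, 0.418% and 0.349% in hyperoside replicates 1, 2 and 3. Control replicate 1 stood above the other libraries of its group, and without it the hyperoside mean was 0.771 times the control mean instead of 0.715 times. Beta-type FPKM summed to 7733 ± 993.4 in control and 5353 ± 532.1 in hyperoside libraries, and alpha-type FPKM, most of it from HBZ, to 657.5 ± 85.3 and 575.5 ± 124.2 (SD, n = 3 each). The ratio of alpha-type to beta-type FPKM averaged 0.0851 ± 0.00414 in control and 0.107 ± 0.0120 in hyperoside libraries (SD, n = 3 per group), with no overlap and a two-sided exact permutation p of 0.1 (adjusted p = 0.14). Its level depends on how reads shared by HBA1 and HBA2 were counted. In RNA from a whole culture, fewer globin-expressing cells and less globin RNA per cell cannot be told apart.

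Within each pair the split between copies did not separate the groups. HBG1 had 26.96%, 24.80% and 26.41% of the gamma counts in control replicates 1, 2 and 3, and 26.50%, 24.91% and 24.27% in hyperoside replicates 1, 2 and 3. The 95% Wilson intervals of single libraries spanned less than 1 percentage point, for example 24.44% to 25.15% in control replicate 2, and the interval of control replicate 2 lay below those of the other control libraries, while those of control replicates 1 and 3 overlapped. Such intervals cover counting error only. On FPKM the group means of the HBG1 share differed by -0.826 percentage points, hyperoside minus control, with a two-sided exact permutation p of 0.5 (adjusted p = 0.5). HBA1 had 47.04% to 51.34% of the alpha pair's counts in control and 45.49% to 49.60% in hyperoside libraries, which also overlapped (exact permutation p = 0.5, adjusted p = 0.5).

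AHSP, which binds free alpha-globin chains and keeps them soluble, was expressed at a low level. It had 114, 106 and 78 counts in control libraries and 85, 83 and 87 in hyperoside libraries. The hyperoside libraries lay inside the control range. Its log2 fold change was -0.27 (SE 0.25, edgeR adjusted p = 0.403), so no change was detectable. Relative to the alpha pair AHSP was higher in every hyperoside library, with a ratio on FPKM of 0.0225 ± 0.00424 in control and 0.0359 ± 0.00729 in hyperoside libraries (SD, n = 3 per group; two-sided exact permutation p = 0.1, adjusted p = 0.14). The closest libraries, control replicate 2 and hyperoside replicate 2, had 0.0273 and 0.0275.

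Other genes of the globin path were followed with fixed lists, described by their counts beside the 23.2% of all genes called lower and 22.1% called higher. Of 11 activators of the globin loci, 4 rose and 3 fell. NFE2, a subunit of the factor that binds the beta-globin locus control region, rose with a log2 fold change of 0.87 (edgeR adjusted p = 1.49e-06). KLF1, the activator of adult beta-globin, rose by 0.96 and LMO2, a bridge of the erythroid complex, by 0.92 on the log2 scale. MAFG and MAFK, small MAF partners of NFE2, fell by 0.59 and 0.42, and TCF3 fell by 0.22 on the log2 scale. Of these falls TCF3 had the largest adjusted p (edgeR adjusted p = 0.0263). The activators called lower were 2 instead of 3 with library totals only, in both limma fits and with the replicate block. They were also 2 in most fits with 1 library left out. GATA1, the master erythroid factor, named after its values were seen, had a log2 fold change of -0.06 (edgeR adjusted p = 0.619).

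Among genes known to repress gamma-globin or to serve in complexes that do, 20 of 21 were tested, 8 rose and 2 fell, with a median log2 fold change of 0.15. MYB rose by 0.83, NFIX by 0.84 and SOX6 by 0.97 on the log2 scale. RCOR1 and HDAC2, corepressor subunits, fell by 0.34 and 0.18. The genes called lower were 1 instead of 2 in 12 of 14 alternatives. The call of HDAC2 (edgeR adjusted p = 0.0488) and that of HDAC1 in the other direction (adjusted p = 0.0489, named after its values were seen) lay at the threshold. BCL11A, the main silencer of the gamma genes in adult cells and the list's untested gene, had 1, 1 and 3 counts in control libraries and 0, 1 and 1 in hyperoside libraries, none above the floor of 3 counts. Of 6 genes of the fetal program, 5 were tested and IGF2BP1, an RNA-binding protein, rose by 0.62 on the log2 scale.

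Heme is the iron-holding group of hemoglobin. Of 10 heme synthesis genes 3 rose and 2 fell, among them ALAS2, the first and erythroid enzyme of the path, with a log2 fold change of 0.48 (edgeR adjusted p = 0.000122). ALAS1 rose by 0.26, and UROS and FECH fell by 0.48 and 0.19 on the log2 scale. FECH lay near the threshold (edgeR adjusted p = 0.0427), and the genes of this list called lower were 1 instead of 2 in 9 of 14 alternatives. Of 10 genes of heme sensing, export and breakdown, 8 were tested and 6 fell. They included EIF2AK1, the heme-regulated kinase that halts globin translation when heme is short, which fell by 0.35, and BLVRB and HMOX2 of heme breakdown, which fell by 0.44 and 0.42 on the log2 scale. Of 7 other globin-fold genes 3 were in the table, and CYGB alone passed the filter on low counts, with a log2 fold change of 0.07 (edgeR adjusted p = 0.924). HBM, the mu-globin gene between HBZ and HBA2, had 0, 2 and 8 counts in the hyperoside libraries and 0 in all control ones.

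The labelled cell line was checked against marker lists. All 18 red cell genes were tested, and 7 rose and 2 fell. ERMAP was 2.31 times as high, and EPOR, the erythropoietin receptor, and TFRC, the transferrin receptor, rose by 1.22 and 0.88 on the log2 scale, while BPGM fell by 0.45. The summed level of the 18 genes was 1988 to 2123 CPM in control and 2584 to 3039 in hyperoside libraries. It was thus higher where the globins were lower. TFRC alone went from a mean of 604 to 1115 CPM, and 9 of the 18 genes were not called. The sum therefore does not describe the list as a whole. Granulocyte and monocyte genes summed to 55.6 to 60.7 CPM in control and 91.4 to 98.2 in hyperoside libraries. Of these 8 genes 5 were tested and 3 rose, namely CEBPE (log2 fold change 3.73), LYZ (0.53) and CSF1R (1.81). The change of CSF1R (SE 0.55) rests on few counts, 16, 5 and 6 in control libraries and 35, 30 and 34 in hyperoside libraries. Megakaryocyte genes summed to 23.5 to 30.9 and 29.4 to 35.1 CPM, with ITGB3 higher (log2 fold change 1.57), ITGA2B lower (-0.36) and GP1BA at 0 in each library. The call of ITGA2B was lost in 6 of 14 alternatives, namely both limma fits and those without control replicate 1 or 2 or hyperoside replicate 1 or 2. Lymphocyte genes summed to 33.1 to 39.6 and 42.6 to 47.7 CPM, most of it from CD3D (log2 fold change 0.29). CD3G rose by 1.39 on the log2 scale. Of these 2 calls none was left without hyperoside replicate 1, and 1 was left without control replicate 2 or 3 or hyperoside replicate 2 or 3. MS4A1, the B cell gene of CD20, had 1 count in all. Fibroblast genes summed to 5.99 to 8.10 and 6.42 to 8.61 CPM, with COL3A1 higher by 0.99 and COL1A1 lower by 0.99 on the log2 scale. The call of COL3A1 was lost without control replicate 1 or 3 or hyperoside replicate 1 or 2. The part of these markers in the globin result was not tested.

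Genes outside the member list were ranked by how like their course over the 6 libraries was to that of HBE1, the most abundant member. Likeness was the root mean square difference of log2 CPM, each taken from its control mean. It was ranked over 9294 genes with a mean of at least 10 CPM, with the members left out. The nearest genes were TOMM5 (0.020), NHP2 (0.023), CBX2 (0.034), ACTR5 (0.037) and CLTB (0.037). Each had its highest value in control replicate 1 and hyperoside replicate 2 as the highest of its group, as HBE1 did. The ranking picks genes for such a course, and HBG2, HBG1, HBA2 and HBA1 had this order of libraries too. TOMM5, for example, had 106.1, 85.9 and 85.3 CPM in control libraries and 61.7, 74.0 and 64.2 in hyperoside libraries. Of the members HBQ1 was nearest to HBE1, with a difference of 0.199, and 1474 of the 9294 genes were nearer. HBG2 stood at 0.241 with 2345 genes nearer, and HBZ at 0.369 with 4856. This difference also grows where the size of the change differs, and the log2 fold change was -0.80 for HBG2 and -0.46 for HBE1. These are descriptions over 6 libraries that fall into 2 groups, and they carry no test.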

How the data were processed

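RNA-seq was performed on 6 K562 libraries, 3 control and 3 hyperoside, grouped by the sample labels. The dose is from the paper's text. The authors deposited raw counts per gene and FPKM values made from them, and 1 gene length per gene accounted for both (within a relative tolerance of 0.001) in 23241 of 23241 genes with counts. The submitters' processing notes name fastp, HISAT2, HTSeq and hg38. Versions, annotation and strand setting are not given in the sources used here. Counts were filtered with filterByExpr (minimum count 10, minimum total 15), normalized by TMM (factors 0.957 to 1.03) and tested in edgeR 4.0.16 (R 4.3.3) with the quasi-likelihood test. A call is an adjusted p under 0.05, and a DEG also has a fold change above 2. DESeq2 1.42.0 and limma 3.58.1 gave alternatives. Steps were tested on simulated data. Ratios were compared with exact permutation tests in scipy 1.17.1. Positions and sequences are those of GENCODE 29 transcripts on GRCh38, matched by RefSeq accession for 10 of 10 members. Named genes were the members and up to 3 called genes per list and direction with the smallest adjusted p. The 5 genes outside the member list nearest to the most abundant member were named too. The members, lists and rules were chosen with earlier results of these data known. Annotation columns of pathways and ontology terms were not used here. A few genes of the lists are counted but not reported here by name.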

Additional observations from a re-analysis of the deposited data

How the results depend on the processing

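The 6 genes called lower and both summed pairs stayed lower and past the threshold in each of 14 alternatives (13 for the sums): other normalizations, tests and filters, FPKM with 1 or 0.1 added, a replicate block, and leaving out any 1 library. Leaving out 1 library, the number of members called lower was 6 throughout, and the number of members that were DEGs ranged from 0 to 2: HBA1 without control replicate 2 (1 gene) or control replicate 3 (1 gene), and HBA1 and HBA2 without hyperoside replicate 2 (2 genes). AHSP stayed lower and uncalled in 14 of 14 alternatives, and the other uncalled genes changed sign around 0 and stayed uncalled. With 1 library left out, HBZ ranged from -0.15 to 0.17, HBD from -0.16 to 0.13 and HBB from -0.42 to 0.26. HBZ was at -0.02 without control replicate 2 and at -0.15 without hyperoside replicate 2. HBD was at 0.03 with library totals only, at 0.01 in both limma fits on FPKM, and at 0.01 and 0.13 without control replicate 1 and hyperoside replicate 1. HBB was at 0.00 with library totals only, at 0.02 and 0.08 in the limma fits with 1 and 0.1 added, at 0.01 with the replicate block, and at 0.11, 0.26 and 0.22 without control replicate 1, control replicate 3 and hyperoside replicate 1. The cause was not tested, and at 6 to 21 counts HBB is limited by depth. Over all context lists 17 genes were called lower and 30 higher, against 12 and 34 with limma on log2(FPKM + 1). Same-numbered libraries did not deviate together (correlations of -0.081, -0.0327 and -0.0342). These values show no strong shared effect, but they cannot tell whether same-numbered libraries were handled as pairs, which is not stated. The replicate block, with a log2 fold change of -0.45 for HBE1, ended no call of a member. No ratio or share turned its direction when any 1 library was left out.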

Other observations

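BGLT3, a non-coding gene between HBG1 and HBD in the beta-type cluster that was chosen after its values were seen, had 256, 180 and 203 counts in control replicates 1, 2 and 3, and 263, 243 and 193 in hyperoside replicates 1, 2 and 3, so the groups overlapped. By edgeR its log2 fold change was 0.08 (SE 0.18, adjusted p = 0.743).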
